A study of Mus musculus with 48 samples.

Results

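The genes described here encode the machinery that fills, docks and fuses synaptic vesicles: 39 genes chosen by symbol from the 24444 genes of the deposited expression table, read in the cortex of all 48 mice. They were sorted into 6 role groups, namely 7 SNARE proteins and their recycling factors, 6 priming and active zone scaffold genes, 9 calcium sensors and clamps, 6 vesicle clustering and Rab genes, 7 vesicle membrane proteins and 4 transporters. The mice were male C57BL/6J, either WT or Chd8 V986*/+ (HET), a germline allele made with CRISPR/Cas9 that places tandem stop codons in *Chd8*, the chromodomain helicase gene often mutated in autism, and that came from a single founder. Whole-body heterozygotes were compared with WT littermates at embryonic day 14.5 (E14.5) and in 1, 6 or 12 month old animals, with 6 mice of each genotype at each age, 1 hemisphere of cortex per mouse and no further treatment. Because the allele is carried by every cell, a difference in cortex cannot be assigned to neurons. The values are variance-stabilised (VST) expression values on a log2 scale, already adjusted by the authors for batch, so 1 unit is close to a doubling where expression is high, and changes of weakly expressed genes are compressed. They are not scaled for gene length, so levels were compared between groups of mice and never between genes.

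A synaptic vesicle is filled with transmitter by a vesicular transporter, tethered near the presynaptic membrane by scaffold proteins such as Bassoon, Piccolo and RIM, and primed by Munc13 proteins, which help the SNARE proteins synaptobrevin (*Vamp1*, *Vamp2*), syntaxin (*Stx1a*) and *Snap25* to assemble. Complexins hold the assembled complex, synaptotagmins trigger fusion when calcium enters, and NSF with its SNAP cofactors (*Napb*) takes the complex apart for reuse. In cortex, excitatory neurons fill vesicles with glutamate through VGLUT1 (*Slc17a7*) or VGLUT2 (*Slc17a6*), the latter being the usual transporter of thalamic and brainstem neurons, and a smaller set of cells uses VGLUT3 (*Slc17a8*).

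The 3 glutamate transporters are paralogs whose values changed differently with age. *Syn1*, the neuronal synapsin, is the gene of this machinery best known for a neuron-restricted promoter, so these 4 promoters are shown for reference. Each is the 300 bases from 250 before to 50 after the annotated start, from RefSeq on GRCm38.p6, the first listed start being shown for *Slc17a6* and *Slc17a8*. Capitals mark matches, on either strand, to the GC box GGGCGG, the cAMP response element TGACGTCA or, within 2 mismatches, the RE1 element at which REST binds. The windows are chr7:45163671-45163970 on the plus strand, chr7:51621580-51621879 on the plus strand, chr10:89621200-89621499 on the minus strand and chrX:20920869-20921168 on the minus strand, in the order listed.
Slc17a7: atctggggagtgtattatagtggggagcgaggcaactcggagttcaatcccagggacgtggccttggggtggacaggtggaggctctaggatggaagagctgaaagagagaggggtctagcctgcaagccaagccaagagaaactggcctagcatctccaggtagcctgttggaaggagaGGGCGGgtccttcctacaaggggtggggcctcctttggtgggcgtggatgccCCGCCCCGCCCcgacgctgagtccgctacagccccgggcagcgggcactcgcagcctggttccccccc
Slc17a6: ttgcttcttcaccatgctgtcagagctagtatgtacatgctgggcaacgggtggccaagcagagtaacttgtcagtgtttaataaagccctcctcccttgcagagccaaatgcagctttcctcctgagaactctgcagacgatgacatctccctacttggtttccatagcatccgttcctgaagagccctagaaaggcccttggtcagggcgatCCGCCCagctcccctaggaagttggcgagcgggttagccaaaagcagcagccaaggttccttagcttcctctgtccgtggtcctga
Slc17a8: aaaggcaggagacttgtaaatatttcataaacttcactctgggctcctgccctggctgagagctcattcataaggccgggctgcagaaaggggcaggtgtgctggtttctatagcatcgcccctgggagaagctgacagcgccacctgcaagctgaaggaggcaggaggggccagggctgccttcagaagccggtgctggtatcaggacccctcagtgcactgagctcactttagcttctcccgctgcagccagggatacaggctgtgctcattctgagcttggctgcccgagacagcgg
Syn1: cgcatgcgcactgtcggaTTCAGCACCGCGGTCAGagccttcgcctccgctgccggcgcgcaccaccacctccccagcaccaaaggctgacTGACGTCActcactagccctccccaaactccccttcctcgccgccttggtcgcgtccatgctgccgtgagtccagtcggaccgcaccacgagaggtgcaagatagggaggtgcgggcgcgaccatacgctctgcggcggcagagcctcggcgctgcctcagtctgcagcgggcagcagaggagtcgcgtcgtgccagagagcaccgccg

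The *Slc17a7* window held 3 GC box matches, of which 2 lie in the run CCGCCCCGCCC, the *Slc17a6* window held 1, and the *Slc17a8* window held none of the letters searched. Of the 39 genes, 27 were matched in the set of RefSeq promoters used here. A GC box was present in 21 of these 27 (77.8%) against 10324 of all 27025 genes in the same set (38.2%), which also holds non-coding genes. A TATAAA match was present in 1 of 27 (*Sv2b*) against 15.7% of all genes, the cAMP response element in 1 of 27 (*Syn1*) against 2.03%, and RE1 in 1 of 27 (*Syn1*) against 0.167%. The 2-mismatch tolerance for RE1 was set after an exact search had found none in these genes, and no match is evidence of binding.

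The labels were checked on *Chd8* and on tissue markers. The *Chd8* VST value at E14.5 ran from 12.33 to 12.66 in WT and from 11.60 to 12.03 in HET mice, and it was lower in HET without overlap at every age, with log2 differences of −0.63, −0.67, −0.64 and −0.54 from the youngest age to the oldest (limma, adjp 0.0261, 3.01e-06, 1.07e-07 and 0.00261). All 12 cortical excitatory neuron markers were at least 0.5 above the table's floor of 2.14 in every group, and the median mouse mean of that list was 11.15 in WT at E14.5 and 10.80 in WT at 1 month. Between those ages in WT, the median mouse mean went from 11.81 to 8.93 for 12 cortical progenitor markers, from 8.15 to 11.28 for 10 inhibitory neuron markers, from 7.40 to 12.76 for 10 oligodendrocyte markers, from 8.62 to 12.70 for 8 astrocyte markers, from 7.27 to 10.002 for 8 microglial markers, from 9.87 to 9.76 for 8 endothelial and mural markers, from 8.42 to 6.66 for 6 choroid plexus markers, from 9.41 to 7.08 for 10 thalamus and habenula markers and from 8.90 to 7.98 for 14 striatal and ganglionic eminence markers. Among the lists with the widest spread within a group were the choroid plexus markers in adults, whose mouse means ran from 6.06 to 8.49 in WT and from 5.79 to 8.86 in HET at 1 month, from 6.30 to 9.04 in WT at 6 months and from 5.81 to 8.19 in HET at 12 months, the thalamus and habenula markers in WT embryos (8.49 to 9.69), the striatal markers in WT at 1 month (7.48 to 8.55) and the posterior markers in embryos. The part of choroid plexus in the adult results was not tested. The mean of 30 midbrain, hindbrain and spinal cord (posterior) markers at E14.5 ran from 3.28 to 6.63 in WT and from 3.34 to 4.45 in HET mice, with WT replicates 2, 3 and 5 highest at 4.88, 4.98 and 6.63. Within 0.5 of the floor by group mean were 5 of the 30 posterior genes in the WT E14.5 group (*Hoxb6*, *Hoxb8*, *Hoxc5*, *Hoxd4*, *Mnx1*) and 15 in the HET E14.5 group, and the list's mouse means did not exceed 3.10 in any adult group. At 12 months, WT replicates 6 and 1 lay farthest out on the first principal component. Named results that changed most without these mice are given with and without them.

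The first question was how the release machinery changed as the cortex matured. In WT cortex every one of the 39 genes changed between E14.5 and 1 month, 37 upward and 2 downward, with a median log2 difference of 2.70 against 0.02 over the 17285 genes tested (limma, Benjamini-Hochberg adjusted over all genes, threshold 0.1). The background was high: 43.4% of all genes tested were called higher and 42.3% lower, so being called is not particular to these genes. HET cortex gave the same counts, 37 upward and 2 downward, with a median of 2.91 against backgrounds of 43.7% higher and 42.4% lower. The 2 genes that fell were *Slc17a6* and *Syn3* in both genotypes. In bulk tissue, more neurons or more mature neurons and more RNA per neuron cannot be told apart, and the shifts in progenitor and glial markers given above ran over the same interval; their part in these changes was not tested.

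The largest increases in WT were in *Slc17a7*, *Snap25*, *Sv2b*, *Vamp1* and *Cplx1*. For *Slc17a7* (chr7:52419291-52431508, plus strand, mm9), which loads glutamate into vesicles at most cortical synapses, the WT values ran from 8.72 (median 9.47) to 9.86 at E14.5 and from 15.21 (median 15.35) to 15.49 at 1 month. The difference of 5.97 ± 0.14 (SE, adjp 2.14e-15) corresponds to 62.9-fold on this scale. *Snap25*, the plasma membrane SNARE that bridges syntaxin and synaptobrevin, went from a range of 10.46 to 11.15 at E14.5 to one of 15.76 to 16.06 at 1 month, a 31.5-fold increase (4.98 ± 0.10, adjp 5.35e-16). All 6 mice at 1 month lay above all 6 embryos for both genes.

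*Sv2b*, a vesicle glycoprotein of the SV2 family, went from between 9.06 and 9.39 to between 13.95 and 14.29 (4.90 ± 0.07, 29.8-fold, adjp 1.35e-17). *Vamp1*, the synaptobrevin form prominent in brainstem, spinal cord and fast-firing interneurons, went from between 5.93 and 6.94 to between 11.38 and 11.65 (4.84 ± 0.14, 28.6-fold, adjp 2.21e-14). *Cplx1*, a complexin, went from between 9.96 and 10.18 to between 13.91 and 14.06 (3.89 ± 0.05, 14.8-fold, adjp 4.87e-18). The HET increases of these 5 genes were 5.62 for *Slc17a7*, 5.04 for *Snap25*, 4.93 for *Sv2b*, 5.02 for *Vamp1* and 3.82 for *Cplx1*, each without overlap between ages.

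**Figure D1:**
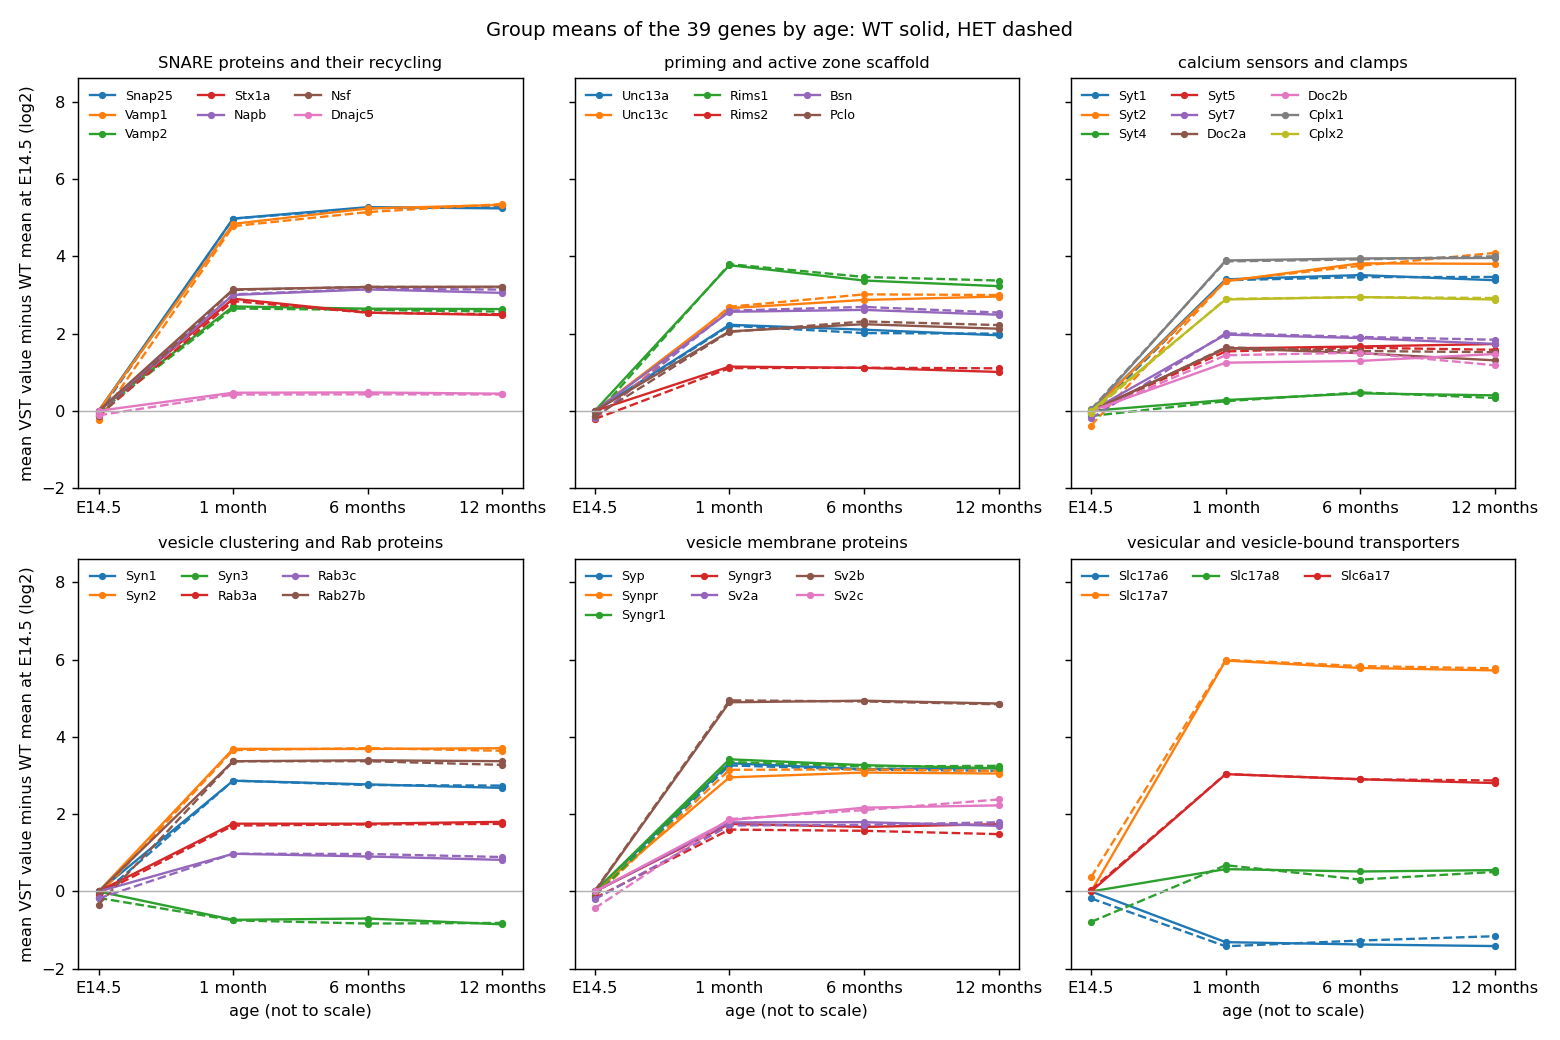
Group mean of each of the 39 genes (VST value, log2, minus its own WT mean at E14.5) at 4 ages, by role group, WT as solid and HET as dashed lines, n = 6 mice a point. Most lines climb between E14.5 and 1 month and are nearly flat afterwards, while *Slc17a6* and *Syn3* lie below 0 from 1 month on.

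All 7 SNARE and recycling genes rose in WT, by a median of 3.0, from 0.47 for *Dnajc5*, the vesicle chaperone CSPα, to 4.98 for *Snap25*. The partners *Stx1a* and *Vamp2* rose by 2.90 and 2.70, and the disassembly genes *Nsf* and *Napb* by 3.14 and 3.0. All 6 priming and scaffold genes rose, by a median of 2.39, led by *Rims1*, a RIM scaffold that links vesicles to calcium channels (3.77 ± 0.17, adjp 6.52e-12), with *Bsn* at 2.56, *Pclo* at 2.06 and the related *Rims2* lowest at 1.14.

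The 9 calcium sensors and clamps rose by a median of 1.97. *Syt1*, the main fast sensor of forebrain synapses, rose by 3.40 and *Syt2*, its counterpart in hindbrain and in some interneurons, by 3.35, whereas *Syt4*, a synaptotagmin with a reduced calcium response, rose by 0.28 ± 0.11 (adjp 0.0241), with overlapping embryonic and 1 month values, and by 0.49 (adjp 0.000569) without WT embryos 2, 3 and 5. Of the vesicle clustering and Rab genes, *Syn1* (2.87), *Syn2* (3.69), *Rab3a* (1.75), *Rab3c* (0.98) and *Rab27b* (3.37) rose and *Syn3* fell. The 7 vesicle membrane genes rose by a median of 2.95, from 1.75 for *Syngr3* to 4.90 for *Sv2b*, with *Syp*, the synaptophysin used as a marker of synaptic vesicles, at 3.32.

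Both genes that fell are known for early expression in developing neurons. *Slc17a6* (chr7:58877200-58926495, plus strand, mm9) in WT ran from 10.93 to 11.52 at E14.5 and from 9.54 to 10.19 at 1 month, a decrease without overlap (−1.31 ± 0.11, adjp 2.12e-08). *Syn3*, a synapsin expressed early in neuronal development, ran from 10.62 to 11.40 at E14.5 and from 10.19 to 10.53 at 1 month (−0.73 ± 0.12, adjp 4.53e-05). In HET the differences were −1.24 for *Slc17a6* and −0.58 for *Syn3*, and the *Syn3* values of the 2 ages overlapped there.

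*Slc17a8* (chr10:89036765-89083998, minus strand, mm9) was a member whose age change depended on which WT embryos were included. In WT its change was 0.58 ± 0.29 (adjp 0.0783) with overlapping values, from 5.74 to 7.54 at E14.5 and from 6.68 to 7.61 at 1 month. Without WT embryos 2, 3 and 5, an alternative chosen after seeing the data, it was 1.24 (adjp 6.33e-05), and in HET it was 1.47 ± 0.13 (adjp 1.36e-08) without overlap. All 39 changes kept their direction and the count of calls was again 39 without those embryos, and the largest WT changes moved little (*Slc17a7* 5.71, *Snap25* 5.13). *Syn3* fell by 0.46 without them, and *Sv2c* rose by 2.57 in place of 1.84.

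**Figure D2:**
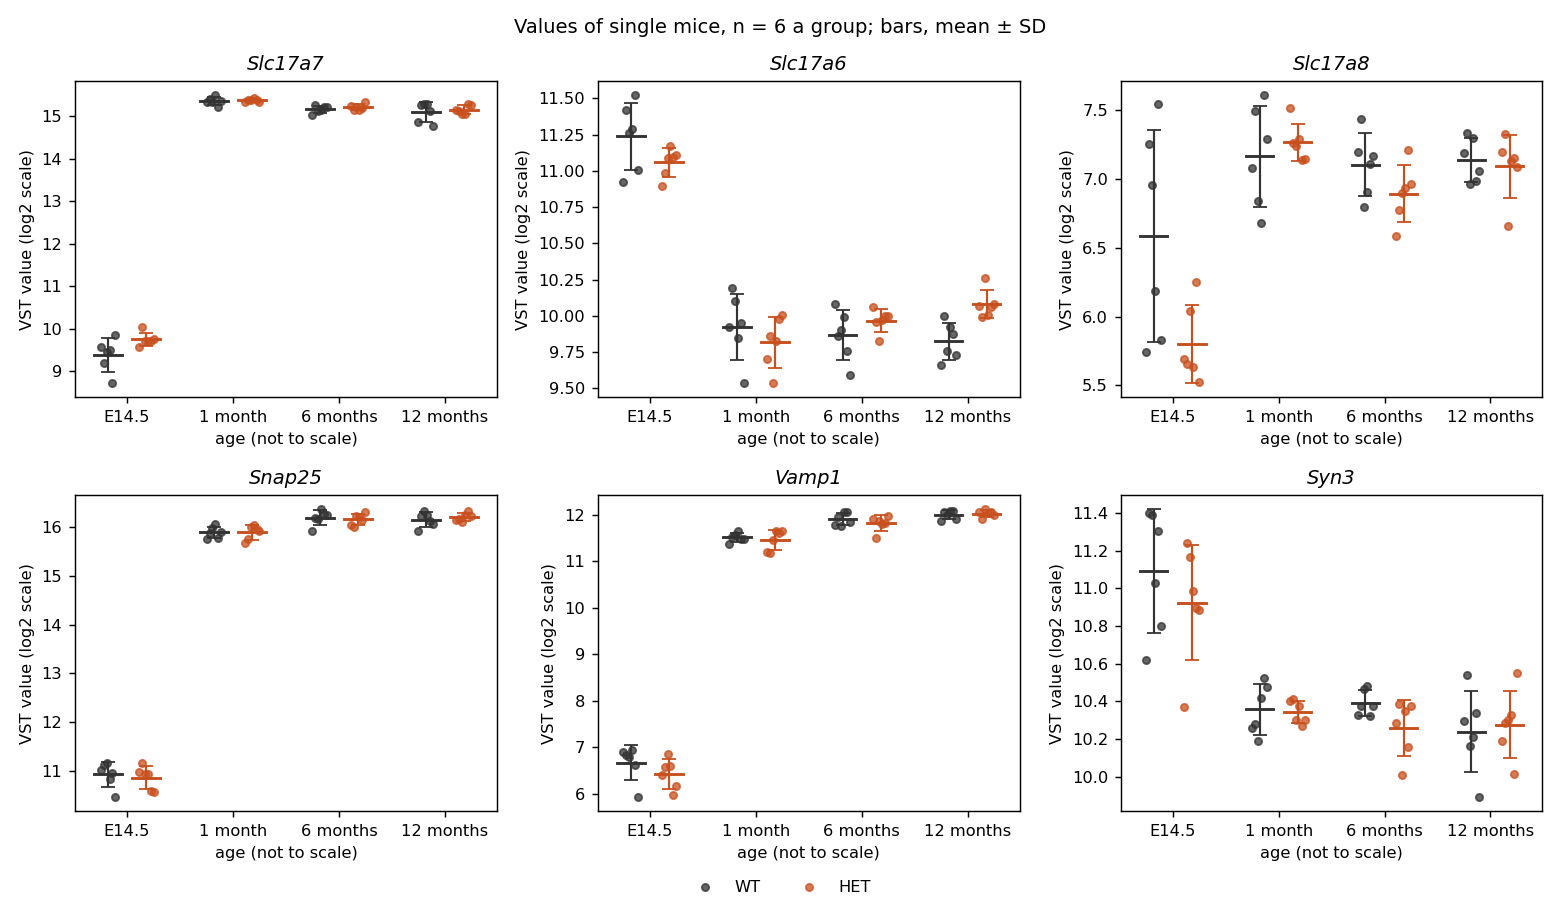
VST values (log2 scale) of single mice for 6 genes at 4 ages, WT dark and HET orange, with bars at the group mean ± SD (n = 6). *Slc17a7*, *Snap25* and *Vamp1* separate E14.5 from all later ages, *Slc17a6* and *Syn3* move the other way, and the WT embryos are widely spread for *Slc17a8*.

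Because most members have a close relative in the list, the within-mouse log2 difference was followed with age in 7 chosen paralog pairs, as a description. The size of a difference reflects gene length as well as expression, and only its change is read. *Slc17a7* minus *Slc17a6* was −1.86 ± 0.60 (SD, n = 6) in WT at E14.5 and 5.43 ± 0.25 at 1 month, and −1.31 ± 0.18 and 5.55 ± 0.19 in HET, so the difference moved toward VGLUT1 by 7.29 log2 units in WT and 6.86 in HET. *Syn1* minus *Syn3* went from 0.44 ± 0.04 to 4.04 ± 0.15 in WT. *Vamp2* minus *Vamp1* went the other way, from 5.69 ± 0.27 in WT embryos to 3.56 ± 0.08, 3.10 ± 0.12 and 3.0 ± 0.07 in WT adults in order of age, with 5.89, 3.56, 3.16 and 2.91 in HET. *Cplx2* minus *Cplx1* went from 2.52 ± 0.17 to 1.51 ± 0.15 and was 1.44 ± 0.20 at 12 months.

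For the remaining pairs of these 7 the WT differences at E14.5 and 1 month overlapped. *Syt1* minus *Syt2* was 6.02 ± 0.37 at E14.5, 6.07 ± 0.18 at 1 month and 5.60 ± 0.11 at 12 months in WT. *Sv2a* minus *Sv2c* was 4.47 ± 0.56, 4.41 ± 0.33 and 3.94 ± 0.22 at the same ages, and *Unc13a* minus *Unc13c*, the Munc13 pair, was 3.25 ± 0.30, 2.82 ± 0.32 and 2.25 ± 0.41. In HET the Munc13 difference went from 3.44 ± 0.16 at E14.5 to 2.76 ± 0.20 at 1 month, without overlap. *Sv2c* and *Unc13c* are the relatives with the more restricted expression in brain, as is *Syt2*.

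The second age question was whether the machinery kept changing in the adult. Between 1 and 6 months in WT, 15 of the 39 genes changed, 7 upward and 8 downward, with a median of 0.01 and a largest change of 0.46. Over all 17255 genes tested, 12.3% were called higher and 12.3% lower. In HET, 15 also changed, 7 upward and 8 downward, against 14% and 12.8% of all genes. The 2 lists of 15 shared 11 genes (73.3% of each), all with the same sign, namely *Snap25*, *Vamp1*, *Napb*, *Pclo*, *Syt2* and *Syt4* upward and *Stx1a*, *Rims1*, *Unc13a*, *Slc17a7* and *Slc6a17* downward. When all 48 mice were fitted together, the counts were 6 in WT and 5 in HET, against 18.7% and 19.6% of all genes in either direction. In this interval the median mouse mean of the oligodendrocyte markers went from 12.76 to 12.04 in WT and from 12.73 to 11.92 in HET, and its part in these changes was not tested.

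Of the 7 SNARE and recycling genes in WT, 3 were called higher, 1 lower and 3 not called, against 12.3% of all genes in each direction. *Vamp1* in WT ran from 11.38 to 11.65 at 1 month and from 11.77 to 12.06 at 6 months, without overlap (0.40 ± 0.06, adjp 0.000191). *Stx1a* ran from 12.66 to 12.95 and then from 12.30 to 12.47, also without overlap (−0.36 ± 0.05, adjp 9.51e-05). *Rims1* went from between 12.33 and 12.83 to between 11.86 and 12.31, and all 6 mice at 6 months lay below those at 1 month (−0.40 ± 0.08, adjp 0.00284).

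*Syt2* increased the most, from a median of 9.55 to 10.02 (0.46 ± 0.11, adjp 0.00588), with overlapping values. *Slc17a7*, which had risen most before 1 month, fell by 0.19 (SE 0.05, adjp 0.0182) and *Sv2c* rose by 0.33 (SE 0.11, adjp 0.0518). Neither of these calls was made with all 48 mice fitted together (limma, adjp 0.213 for *Slc17a7* and 0.348 for *Sv2c*). The *Sv2c* call was lost when any of WT replicates 1 and 4 at 1 month or 1 and 2 at 6 months was left out (adjp 0.102 to 0.112). None of the 6 vesicle clustering and Rab genes was called in WT in this interval, and in HET only *Syn1* was (−0.11, adjp 0.0457).

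Between 6 and 12 months, no member was called in WT (0 also had an unadjusted p below 0.05, and 0.00579% of 17283 genes were called). Without WT replicates 1 and 6 at 12 months the count was again 0, where 3 of 17280 genes were called. In HET, where 1.07% of 17254 genes were called higher and 2.36% lower, 2 members were called. *Doc2b*, a calcium sensor of spontaneous and asynchronous release (chr11:75582468-75609551, minus strand, mm9), ran from 10.65 to 11.01 at 6 months and from 10.38 to 10.64 at 12 months, without overlap (−0.33 ± 0.06, adjp 0.0167). *Syt2* ran from 9.67 to 10.29 at 6 months and from 10.13 to 10.43 at 12 months (0.33 ± 0.09, adjp 0.0617), and it lost its call when any of 5 single mice was left out (HET replicates 2 and 4 at 6 months, and 1, 3 and 6 at 12 months). In WT the corresponding differences were 0.18 ± 0.09 for *Doc2b* (adjp 0.724) and −0.01 ± 0.14 for *Syt2* (adjp 0.982). With all 48 mice fitted together neither HET call was made (adjp 0.189 and 0.42).

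The main question of the study's design was whether the Chd8 V986*/+ allele altered these genes. No member was called at any of the 4 ages (limma, adjp threshold 0.1), where the share of all genes called was 0.00593% in embryos and 0.139%, 0.0927% and 0.0463% in the 3 adult groups in order of age. At an unadjusted p below 0.05 there were 3 members at E14.5 against 4.56% of all genes, 2 at 1 month against 8.8%, 3 at 6 months against 7.59% and 5 at 12 months against 11.6%. The members' median log2 difference was −0.13 in embryos, −0.01 at both 1 and 6 months and 0.04 at 12 months, against less than 0.01 in size over all genes at each age. The SE of a member's adult difference was at most 0.14, and no adult difference was larger than 0.29 in size.

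**Figure D3:**
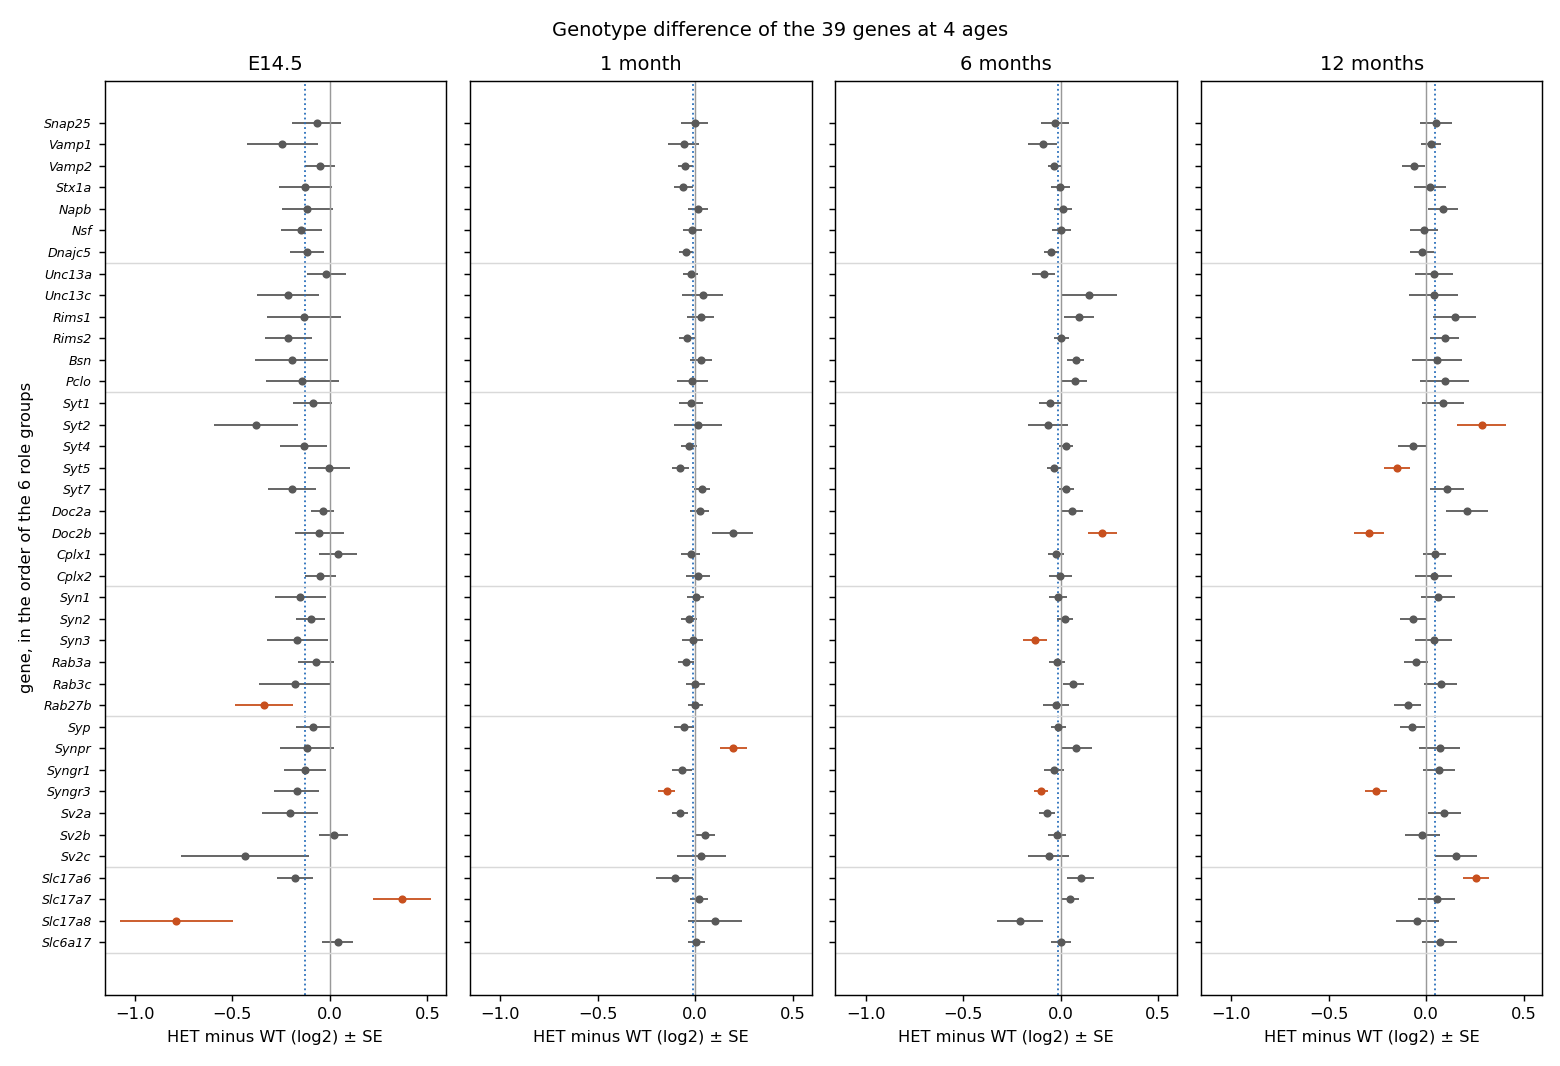
HET minus WT log2 difference ± SE of each of the 39 genes at 4 ages, in role groups separated by grey lines, with an unadjusted p below 0.05 in orange and the members' median as a dotted line. At E14.5 most points lie left of 0 with wide errors, and in the adult most lie within 0.15 of 0.

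At E14.5, 35 of the 39 differences were below 0. The 3 members with the lowest p were *Slc17a8*, *Slc17a7* and *Rab27b*. *Slc17a8* ran from 5.74 (median 6.57) to 7.54 in WT and from 5.52 (median 5.67) to 6.25 in HET (−0.79 ± 0.29, adjp 0.982 by limma), with −0.85 within replicates 1 to 3 and −0.72 within replicates 4 to 6. *Slc17a7* ran from 8.72 (median 9.47) to 9.86 in WT and from 9.57 (median 9.71) to 10.03 in HET (0.37 ± 0.15, adjp 0.982 by limma), with 0.37 and 0.36 within the 2 sets of replicates. *Rab27b*, a Rab GTPase of secretory vesicles, ran from 6.51 to 7.42 in WT and from 6.58 to 7.11 in HET (−0.34 ± 0.15, adjp 0.982), with −0.44 and −0.24 within the sets. With all 48 mice in 1 fit, *Slc17a8* and *Slc17a7* were called (adjp 0.0561 and 0.089), where 0.711% of all genes were. The genotypes overlapped for all 39 genes, where 0.261% of all genes did not overlap.

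These differences were compared with and without the WT embryos that had the highest posterior markers. *Slc17a8* was 7.25, 6.96 and 7.54 in WT replicates 2, 3 and 5 and 5.74, 6.19 and 5.83 in WT replicates 1, 4 and 6, the latter inside the HET range. Without those 3 mice the members' median difference was 0.04, and 27 of 39 differences were above 0. The differences were then −0.12 for *Slc17a8*, 0.11 for *Slc17a7* and −0.10 for *Rab27b*. With the posterior marker mean of each mouse as a covariate the median was 0.01, and the same 3 differences were −0.27, 0.11 and −0.18. No member had an unadjusted p below 0.05 in either fit. Over all genes, 359 of 16872 had one without those mice and 416 of 16877 with the covariate. With every mouse and no covariate, 769 of 16877 genes did.

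The mean of the 39 genes in these embryos was 10.56, 10.56 and 10.52 in WT replicates 2, 3 and 5, 10.02 to 10.30 in the other WT embryos and 10.08 to 10.40 in HET. The cortical progenitor mean, from replicate 1 to 6, was 11.70, 11.72, 11.62, 11.93, 11.91 and 12.26 in WT and 11.79, 11.73, 11.86, 11.94, 12.10 and 12.19 in HET. The mean of the 39 genes was 10.20, 10.56, 10.56, 10.30, 10.52 and 10.02 in WT and 10.10, 10.40, 10.33, 10.28, 10.13 and 10.08 in HET in the same order. The embryos highest for progenitor markers, WT replicate 6 and HET replicates 5 and 6, were among the 4 lowest for the 39 genes, whereas WT replicate 1 and HET replicate 1 were below the median of the embryos for both and WT replicates 4 and 5 above it for both. Other lists also differed between genotypes in the median of their genes, with no gene called. HET minus WT was 0.30 for the excitatory neuron markers (9 of 12 above 0), 0.22 for the striatal markers (12 of 14 above 0), 0.07 for the progenitor markers (11 of 12 above 0), −0.22 for the thalamus and habenula markers (7 of 10 below 0), −0.14 for the inhibitory neuron markers (8 of 10 below 0) and −1.003 for the posterior markers (23 of 23 tested below 0). Genes entered these fits by their mean over all 12 embryos. Of the 30 posterior genes, 25 were at least 0.5 above the floor in WT and 15 in HET. Some posterior genes were thus tested only through their WT values and had to lie below 0. Their count and median were therefore partly set by the filter. The part of tissue composition in the embryonic differences was not tested beyond these values.

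**Figure D4:**
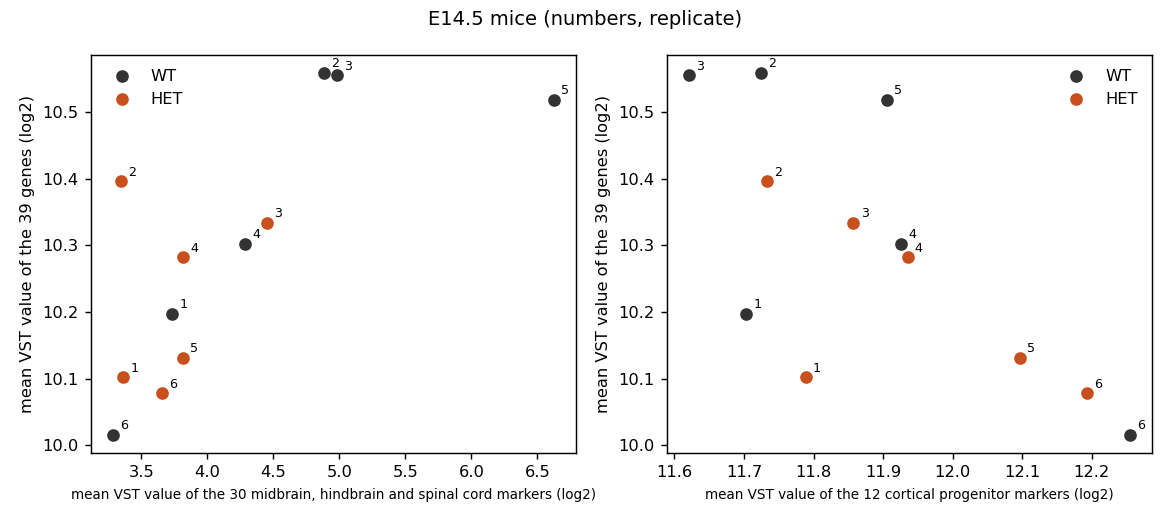
Mean VST value (log2) of the 39 genes in each E14.5 mouse against the mean of 30 midbrain, hindbrain and spinal cord markers (left) and of 12 cortical progenitor markers (right), WT dark and HET orange, with replicate numbers. WT replicates 2, 3 and 5 lie highest for the 39 genes and farthest right for the posterior markers, and WT replicate 6 is lowest for the 39 genes and highest for the progenitor markers.

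In the adult, *Syngr3*, a synaptogyrin of the vesicle membrane that binds the dopamine transporter (chr17:24822037-24826900, minus strand, mm9), was among the members with the lowest p at each age. At 1 month it ran from 11.84 to 12.03 in WT and from 11.63 to 11.86 in HET, with 4 of 6 HET mice below every WT mouse (−0.15 ± 0.04, adjp 0.335 by limma). At 6 months it ran from 11.80 to 11.90 in WT and from 11.68 to 11.82 in HET, again with 4 HET mice below every WT mouse (−0.10 ± 0.04, adjp 0.524 by limma). At 12 months it ran from 11.81 (median 11.93) to 12.06 in WT and from 11.58 (median 11.69) to 11.73 in HET (−0.26 ± 0.06, adjp 0.208 by limma).

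*Syngr3* at 12 months was the single member whose genotypes did not overlap in the adult, where the share of all genes without overlap was 0.825%, 0.527% and 0.868% in order of age. Within replicates 1 to 3 the difference was −0.15, −0.14 and −0.19 in order of age, and within replicates 4 to 6 it was −0.15, −0.06 and −0.33. At 12 months adjp was 0.0879 with the set of replicates as a covariate, 0.0647 with all 48 mice in 1 fit (3.01% of all genes called) and 0.065 without WT replicate 3. Without WT replicates 1 and 6 the difference was −0.26 (adjp 0.204). At E14.5 it was −0.17 ± 0.12 (adjp 0.982).

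*Doc2b* was higher in HET at 6 months and lower at 12 months, neither past the threshold. At 6 months it ran from 10.47 (median 10.58) to 10.88 in WT and from 10.65 (median 10.86) to 11.01 in HET (0.21 ± 0.07, adjp 0.503 by limma), with 0.20 and 0.23 within the sets of replicates. At 12 months it ran from 10.47 (median 10.85) to 10.95 in WT and from 10.38 (median 10.54) to 10.64 in HET (−0.29 ± 0.08, adjp 0.208 by limma), with −0.25 and −0.33 within the sets. WT replicate 3 at 12 months was the lowest WT mouse at 10.47, and without it the 12 month difference was −0.36 (adjp 0.0344), the call count at that age being 2 (*Doc2b* and *Syngr3*) where 1.45% of all genes were then called, against 0.0463% with every mouse. Without WT replicates 1 and 6 the difference was −0.23 (adjp 0.358).

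**Figure D5:**
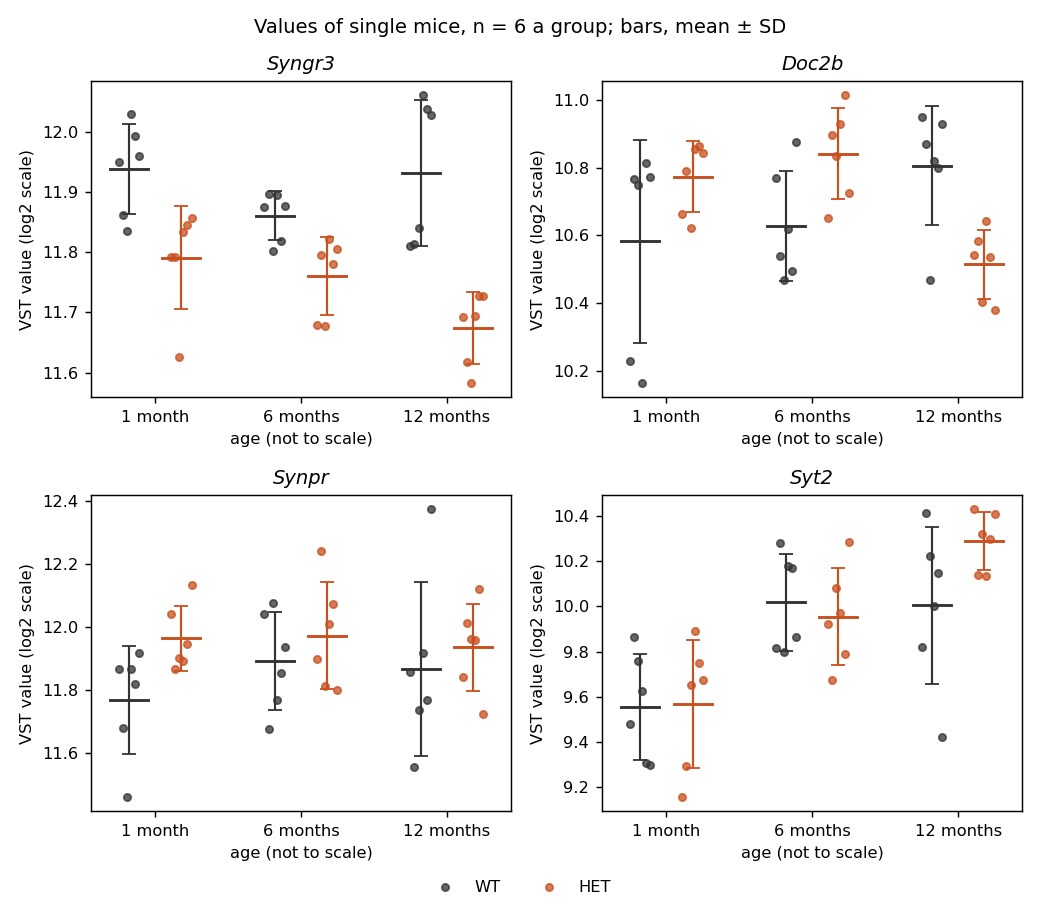
VST values (log2 scale) of single adult mice for *Syngr3*, *Doc2b*, *Synpr* and *Syt2*, WT dark and HET orange, with bars at the group mean ± SD (n = 6). The 6 HET mice lie below the 6 WT mice for *Syngr3* at 12 months, and for *Doc2b* the HET mean is above WT at 6 months and below it at 12 months.

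The other members among the 3 with the lowest p within an adult age were *Slc17a6*, *Synpr*, *Syn3* and *Sv2a*. *Slc17a6* at 12 months ran from 9.66 to 10.0002 in WT and from 9.99 to 10.26 in HET, 5 of the 6 HET mice lying above every WT mouse (0.26 ± 0.07, adjp 0.208 by limma), with 0.30 and 0.21 within the sets of replicates and 0.19 (adjp 0.343) without WT replicates 1 and 6. *Synpr*, synaptoporin, at 1 month ran from 11.46 to 11.92 in WT and from 11.87 to 12.14 in HET (0.20 ± 0.07, adjp 0.418 by limma), with 0.27 and 0.12 within the sets. *Syn3* at 6 months was 0.13 lower in HET by the group means (10.39 and 10.26, SE 0.06, adjp 0.647), with −0.16 and −0.10 within the sets. *Sv2a*, the vesicle protein bound by levetiracetam, differed by −0.08 ± 0.04 at 1 month (adjp 0.614), and its difference was −0.16 within replicates 1 to 3 and 0.01 within replicates 4 to 6. At 1 month the median HET minus WT was 0.30 for choroid plexus, 0.20 for striatal and −0.22 for endothelial and mural markers. At 6 months it was −0.59 for choroid plexus, 0.17 for endothelial and mural, −0.15 for oligodendrocyte and 0.12 for astrocyte markers. The other lists lay between −0.10 and 0.02 at 1 month and between −0.06 and 0.13 at 6 months. No marker gene was called, and the part of these lists was not tested.

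By role, the 12 month medians of HET minus WT were 0.02 for SNARE genes, 0.08 for priming and scaffold genes, 0.04 for calcium sensors, −0.01 for clustering and Rab genes, 0.06 for membrane proteins and 0.06 for transporters. All 6 priming and scaffold genes lay above 0, from 0.04 for *Unc13c* to 0.15 for *Rims1*, each with an adjp above 0.1. WT replicate 6 was the lowest mouse of its group for *Rims1*, *Rims2*, *Bsn*, *Pclo* and *Unc13a*, but not for *Unc13c*. Without WT replicates 1 and 6 at 12 months the median of the 39 members was −0.05 in place of 0.04, with 8 of 39 differences above 0 in place of 26. The core fusion genes differed little at 12 months, with 0.05 ± 0.08 for *Snap25*, −0.06 ± 0.06 for *Vamp2*, 0.02 ± 0.08 for *Stx1a* and 0.08 ± 0.11 for *Syt1*. Marker lists also differed at this age in the median of their genes, with no gene called. HET minus WT was −0.30 for choroid plexus (5 of 6 below 0), −0.22 for striatal (10 of 14 below 0) and 0.14 for progenitor markers (7 of 12 above 0). The other lists lay between −0.15 (thalamus and habenula) and 0.04 (microglia). Their part in the 12 month differences was not tested.

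Whether the genotype difference itself changed with age was tested as an interaction in 1 fit of all 48 mice. This fit uses 1 spread per gene for embryos and adults. The members' median SD, however, was 0.26 in WT embryos and 0.09 in WT mice at 1 month. The SEs and p-values of interactions can therefore be too small where embryos enter and too large between adult ages. No member was called for 1 month against E14.5 or for 6 months against 1 month (0% and 0% of 17311 genes called), nor for 12 against 6 months (0.0578%) or 12 months against E14.5 (0.0635%). At an unadjusted p below 0.05 the counts of members were 3, 0, 1 and 8 in that order, against 4.6%, 3.36%, 8.68% and 11.5% of all genes. The interactions with the lowest p were 0.89 ± 0.27 for *Slc17a8* (adjp 0.991), 0.34 ± 0.13 for *Rab27b* (adjp 0.999) and −0.35 ± 0.14 for *Slc17a7* (adjp 0.999) between E14.5 and 1 month, and they were 0.22, 0.10 and −0.09 without WT embryos 2, 3 and 5. Without WT embryo 6 alone, *Rab27b* (0.46, adjp 0.047) and *Slc17a8* (1.04, adjp 0.0698) were called for this interaction, where 0.682% of all genes were. Between 1 and 6 months they were 0.21 for *Slc17a6*, −0.31 for *Slc17a8* and −0.12 for *Syn3*, each with an adjp of 1. Between 6 and 12 months the interaction of *Doc2b* was −0.51 ± 0.15 (adjp 0.289 by limma), followed by −0.16 for *Syngr3* (adjp 0.697) and 0.35 for *Syt2* (adjp 0.698). The *Doc2b* adjp was 0.0834 without WT replicate 3 at 12 months and 0.741 without WT replicates 1 and 6, when the *Syt2* interaction was 0.16 (adjp 0.977) and that of *Syngr3* −0.16 (adjp 0.903).

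Between E14.5 and 12 months the interactions with the lowest p were 0.43 ± 0.13 for *Slc17a6* (adjp 0.19), 0.66 ± 0.23 for *Syt2* (adjp 0.264) and 0.74 ± 0.27 for *Slc17a8* (adjp 0.29). In this comparison single mice decided the count, which was 8 without WT embryo 6 (4.01% of all genes), 1 without WT embryo 1 (0.844%) and 1 without WT replicate 4 at 12 months (1.14%). Without WT embryos 2, 3 and 5 the count was 0, where 0 of all 17300 genes were called. Without those 3 embryos the values were 0.27, 0.25 and 0.07 for the same genes, and without WT replicates 1 and 6 at 12 months they were 0.37, 0.47 and 0.73.

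The spread between mice bounds what could be seen. The median SD of the 39 genes was 0.26 in WT and 0.20 in HET at E14.5, against 0.18 and 0.17 over all genes, and 0.08 to 0.09 at 1 and 6 months against 0.12 to 0.13 over all genes. At 12 months it was 0.18 in WT and 0.11 in HET, against 0.18 and 0.12 over all genes. The least variable member within a group was *Syt7* in HET at 6 months (SD 0.03) and the most variable was *Sv2c* in WT at E14.5 (SD 0.89), where the values ran from 6.18 to 8.55.

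Another 62 genes of the same pathway, in 5 lists, were read in the same fits. From E14.5 to 1 month in WT, 52 rose, 9 fell and 1 was not called, with a median of 1.61 against 2.70 for the 39 members and backgrounds of 43.4% higher and 42.3% lower. Of 15 other SNARE and fusion partners 14 rose, *Sncb*, β-synuclein, the most (3.89), and *Snap29* fell (−0.62). Of 16 other priming and docking genes 12 rose, *Rph3a*, rabphilin, the most (3.46), and 4 fell, led by the scaffold gene *Erc1* (−0.89).

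Of 9 other synaptotagmins and complexins 7 rose, *Cplx3* the most (5.91), and *Syt9* fell (−0.52). Of 11 other vesicle membrane proteins and transporters 10 rose, led by *Slc30a3*, the zinc transporter of glutamatergic vesicles (4.88), and *Slc18a2*, the monoamine transporter VMAT2, fell (−2.18). Of 11 endocytosis genes 9 rose, *Pacsin1* the most (4.39), and 2 fell, led by *Itsn1* (−0.73). In HET 51 rose and 9 fell, against 43.7% and 42.4% of all genes.

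Between 1 and 6 months in WT, 6 of the 62 rose and 10 fell, against 12.3% of all genes in each direction, with *Rims3* highest (0.45, adjp 0.000788) and *Erc1* lowest (−0.40, adjp 6.05e-05). In HET, 10 rose and 12 fell over the same interval, against 14% and 12.8% of all genes, with *Rims3* highest (0.53, adjp 0.000284) and *Cplx3* lowest (−0.46, adjp 0.0013). Between 6 and 12 months in HET, *Snap29* (−0.23, adjp 0.0533) and *Erc1* (−0.20, adjp 0.0288) fell, against 2.36% of all genes called lower. None of the 62 was called between genotypes at any age (limma), with 1, 3, 1 and 7 at an unadjusted p below 0.05 in order of age, each share being below the 4.56%, 8.8%, 7.59% and 11.6% of all genes. Their median genotype difference was −0.09 in embryos and between −0.01 and 0.01 in adults, beside −0.13 and between −0.01 and 0.04 for the 39 members.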

How the data were processed

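Cortical RNA of 48 mice was measured by polyA RNA-seq. Per the labels and the study's methods, the authors filtered and trimmed the reads, aligned them with STAR (2.5.2b) to mm9, quantified them with Salmon (0.11.3) and used DESeq2 (1.22.2) with a batch correction. The deposited table holds 24444 genes as log2-scale VST values made by the authors. The study lists aligned reads per sample; these and read counts were not used here, and the deposited values carry no depth, so no counting error is given. The most frequent value, 2.14, is the floor (15.7% of all values), and 6.06% of values lie below it. For every gene the mean of all mice numbered 1 to 3 and that of all mice numbered 4 to 6, each over the 8 groups together, were equal within 1e-12; within a group they were not. The batch is not named in the sources used here; a covariate for these sets of replicates was 1 alternative. The labels and the methods name different library kits.

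Each comparison was fitted over the mice it concerns with limma 3.58.1 (R 4.3.3; trend) after removing genes with a mean under the floor plus 0.5, with Benjamini-Hochberg adjustment over all genes tested and adjp below 0.1 as the threshold, the study's own; interactions used all 48 mice. All 39 members passed the filter in every comparison. The fit was tested on simulated data. Genes named with statistics were those called and the 3 with the lowest p in each genotype comparison; in WT between neighbouring ages, the 5 called genes with the largest increase and the 5 with the largest decrease (3 and 3 after 1 month); for interactions, those called or else the 3 with the lowest p; the paralog pairs; *Chd8*; and in each list of other pathway genes the called gene with the largest change each way (between adult ages, over the 5 lists together). Members given only as a value within a role group were named beyond this rule, after their values were seen. The members, role groups, pathway and marker lists were chosen with earlier results of these data known. Gene positions are from GENCODE M1 on mm9. Alternatives are given in the closing section. P-values measure the spread between these mice.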

Additional observations from a re-analysis of the deposited data

Results flagged for a closer look

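In 136 sets of 6 mice (17 named genes in 8 groups), 13 held a mouse whose gap to its nearest neighbour passed Dixon's 95% critical value for the share of the whole range; chance marks about 1 set in 20, and genes of 1 mouse are not independent. No cause was tested. Replicate 3 of the HET 12 month group was the lowest for *Slc17a8* (6.6609, next 7.0859) and for *Rims1* (12.0038, next 12.2194) and the highest for *Slc17a6* (10.2622, next 10.085). WT replicate 3 at 12 months was the lowest for *Doc2b* (10.467, next 10.7989). HET replicate 3 at 1 month was the lowest for *Syngr3* (11.6254, next 11.7919). In the HET 6 month group, replicate 6 was the highest for *Sv2b* (14.2635) and *Cplx1* (14.0972), and replicate 2 the lowest for *Vamp1* (11.5015) and *Stx1a* (12.1941). WT embryo 6 was the lowest for *Vamp1* (5.9324, next 6.6289) and HET embryo 1 for *Sv2c* (6.2469, next 6.8009). WT replicate 4 at 1 month was the highest for *Cplx1* (14.0617), and WT replicate 1 at 6 months the lowest for *Rims1* (11.8607, next 12.2567).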

How the results depend on the processing

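With all 48 mice in 1 fit, the members called were 2 rather than 0 for genotype at E14.5 (*Slc17a8* and *Slc17a7*; 0.711% of all genes called), 1 rather than 0 at 12 months (*Syngr3*; 3.01% of all genes), 6 and 5 rather than 15 between 1 and 6 months in WT and HET, and 0 rather than 2 between 6 and 12 months in HET. That fit uses 1 spread per gene for embryos and adults. The set of replicates as a covariate gave 1 call at 12 months (*Syngr3*; 0.0463% of all genes). For HET between 6 and 12 months the count was 1 with no filter, 1 with limma without a trend and 1 at adjp below 0.05 (2.02%, 1.49% and 1.51% of all genes). Leaving out 1 mouse gave 0 to 2 calls for genotype at 12 months, 1 to 3 for HET between 6 and 12 months, 0 to 2 for the interaction of 1 month and E14.5 (2 without WT embryo 6), 0 to 1 for that of 12 and 6 months and 0 to 8 for that of 12 months and E14.5. *Sv2a* at 1 month changed sign within replicates 4 to 6 (0.0052). The cause was not tested. Of 1042 values of named genes under alternatives, 1008 kept their direction and side of the threshold, 19 lost and 14 gained a call and 1 changed sign. Quantile normalization moved the median of all genes between E14.5 and 1 month from 0.02 to −0.10 in WT and from 0.02 to −0.11 in HET; 37 members still lay above 0, with 36 and 38 called (85.9% and 86% of all genes in either direction). Replicate numbers were not taken as pairs, since the labels tie no mice together and not every pair passed 0.1. The mean correlation of same-numbered mice was 0.226 at E14.5 (lowest 0.015; 4 of 6 closest to their own number, a hint of shared variation in embryos) and −0.034 to 0.046 later. With the replicate block, 15 members had an unadjusted p below 0.05 at E14.5 (3 without it), where all genes went from 4.56% to 11.8%, and 1 member (*Syt7*) was called for the interaction of 12 months and E14.5 (1.47% of all genes). The alternatives without WT embryos 2, 3 and 5 and without WT replicates 1 and 6 at 12 months were chosen after seeing the data. Since the values carry no counts, what depth limits was not assessed.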
